A study of Mus musculus with 4 samples.

Results

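Penk, the gene of the enkephalin precursor proenkephalin, was followed in single regulatory T cells (Tregs) from mouse visceral adipose tissue. It is 1 of 32285 genes in the deposited tables, and it was chosen by its measured level, which earlier results of these data gave as higher in KO than in WT cells. The cells came from 2 pools, each a mixture of 2 conditions that were told apart by an antibody-bound DNA tag, the hashtag. In the Srebf2 pool, KO cells came from 4 male Srebf2flox/flox mice and WT cells from 4 male Srebf2WT/WT mice, all 25 weeks old and all carrying Foxp3YFP-cre. Cre is driven by Foxp3 in both genotypes, so the floxed gene, which encodes a transcription factor of cholesterol synthesis, is targeted in Foxp3-expressing cells. In the diet pool, HFD cells came from 5 mice on a high-fat diet and NCD cells from 5 mice on a normal chow diet, each for 22 weeks; all were Foxp3thy1.1 PpargTdt males of 23 to 27 weeks. Live CD3+ CD4+ Foxp3+ cells were sorted before 5′ single-cell RNA sequencing.

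Each condition is 1 hashtag and 1 pool of mice. A condition therefore cannot be told apart from its animals or its hashtag, no test between conditions was possible, and every interval given here is a 95% interval that covers counting error only. A UMI (unique molecular identifier) counts 1 captured RNA molecule, and CPM is UMIs of a gene per 1000000 UMIs summed over a set of cells. Of 20492 barcodes, cells were kept with 500 or more genes, under 10% mitochondrial UMIs, 90% or more of their hashtag UMIs from 1 tag, and no Cd79a, Lyz2 or Cd8a UMI. This left 3956 KO, 3490 WT, 4512 HFD and 4938 NCD cells, with a median of 3641, 3590, 3194 and 3989 UMIs per cell. The pools shared 135 barcodes, of which 87 were kept in both. Foxp3 UMIs were found in 56.8% of KO, 55.4% of WT, 40.5% of HFD and 53.8% of NCD cells. The sorted gene was thus unseen at this depth in a large part of the cells, most of all in HFD. The Foxp3 level in CPM, given below for cells with no Penk UMI, was also lowest in HFD.

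Proenkephalin is cut by prohormone convertases into Met- and Leu-enkephalin, short peptides that act on the delta and mu opioid receptors. Neurons and adrenal chromaffin cells are its classical sources, and T cells, Tregs among them, also transcribe the gene. Enkephalin peptides are broken down by peptidases on cell surfaces and in the cytosol. In mouse adipose tissue, many Tregs carry ST2, the IL-33 receptor encoded by Il1rl1. Tnfrsf9 encodes 4-1BB, a costimulatory receptor of activated T cells, and Il1r2 encodes a decoy receptor for interleukin-1.

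Penk (ENSMUSG00000045573) lies on mouse chromosome 4 at 4133536 to 4138815 of the GRCm38.p6 annotation, the build that mm10 names. The gene spans 5280 bp with 2 annotated transcripts and overlaps 0 other genes. Its nearest neighbours are Sdr16c6, 56021 bp away, and A830012C17Rik, 9214 bp away, so counts for Penk are not shared with an overlapping gene. No Penk sequence is printed here. The sequences on which the assignment of Penk to conditions rests are the 15-base hashtag oligos, printed in lower case with no base marked.

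KO hashtag: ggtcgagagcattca
WT hashtag: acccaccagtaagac
HFD hashtag: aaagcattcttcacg
NCD hashtag: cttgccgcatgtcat

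Penk was higher in KO than in WT cells and higher in HFD than in NCD cells, by level and by the share of cells holding it. KO cells held 1019 Penk UMIs, or 62.0 CPM (58.2 to 65.9), and WT cells 279, or 19.9 CPM (17.6 to 22.4). The log2 ratio of KO over WT was 1.64 (1.45 to 1.83), a 3.11-fold difference. This is the contrast for which the gene was chosen, so the value is a description. Of 6379 genes that could be measured in that comparison, 17 (0.266%) were 2-fold or more higher in KO and 21 (0.329%) lower, and the median log2 ratio of all was 0.01. Penk ranked 8 of 6379 from the top, and 1 of 6234 with antigen receptor segments, immunoglobulin, mitochondrial, ribosomal and sex-linked marker genes set aside.

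HFD cells held 2392 Penk UMIs, or 129 CPM (124 to 134), and NCD cells 660, or 29.7 CPM (27.5 to 32.1). The log2 ratio of HFD over NCD was 2.12 (1.99 to 2.24), a 4.34-fold difference. This value too is a description, since the rule that chose the gene also used this contrast. Many more genes differed with diet: 285 of 6547 (4.35%) were 2-fold or more higher in HFD and 286 (4.37%) lower, the median of all was 0.08, and Penk ranked 78 of 6547, or 74 of 6396 with the same genes set aside.

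Penk UMIs were found in a small share of cells in each condition. Of KO cells, 213 (5.38%, 4.70 to 6.13) held a Penk UMI, against 99 WT cells (2.84%, 2.31 to 3.44). Of HFD cells, 379 (8.40%, 7.61 to 9.25) held one, against 201 NCD cells (4.07%, 3.54 to 4.66). With each cell thinned to 2000 UMIs the shares were 3.65% in KO and 2.07% in WT, and 6.42% in HFD and 2.54% in NCD, so the order within each pool stayed as it was. Thinning left out 311 KO, 307 WT, 711 HFD and 286 NCD cells with fewer UMIs.

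**Figure D1:**
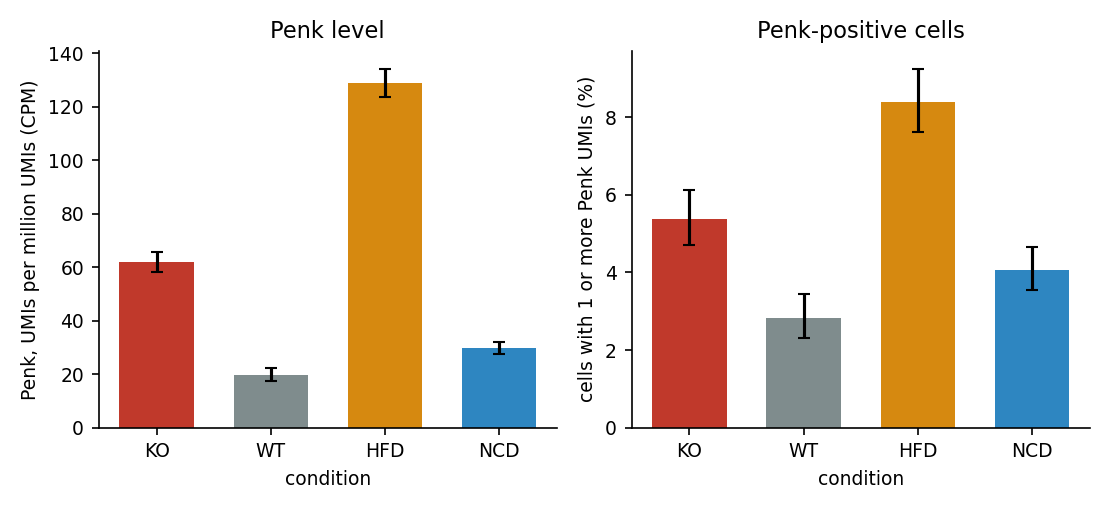
Penk level (CPM) and share of cells with a Penk UMI (percent) in KO, WT, HFD and NCD cells, 1 pool of mice each. Bars start at 0, error bars are 95% counting intervals, and KO stands above WT (62.0 against 19.9 CPM) and HFD above NCD (129 against 29.7 CPM).

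Droplets of cell types that should lack Penk gave the background. B cell-type droplets (2 or more Cd79a UMIs, no Cd3e, no Foxp3) held Penk in 0 of 75 in the Srebf2 pool, which allows a share of up to 4.80%. Their median depth was 4296 UMIs. In the diet pool 1 of 184 such droplets (0.543%) held Penk at a median of 3654 UMIs. Macrophage-type droplets (2 or more Lyz2 UMIs, no Cd3e, no Foxp3) held Penk in 0 of 19 and 0 of 42. The diet-pool shares in HFD and NCD cells lay above the B cell-type share and above its upper limit of 2.99%. In the Srebf2 pool the number of such droplets was too small to set a background below the WT share. By level, the 0 Penk UMIs of its B cell-type droplets allowed up to 9.22 CPM, below the 19.9 CPM of WT cells. Its macrophage-type droplets were fewer and allowed up to 28.9 CPM.

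Penk UMIs were unevenly spread over the cells that held them. The mean per Penk-positive cell was 4.78 in KO against 2.82 in WT, and 6.31 in HFD against 3.28 in NCD. The median was 1 in KO and WT, 2 in HFD and 1 in NCD. Cells with 5 or more Penk UMIs made up 1.29% of KO and 0.487% of WT cells, and 2.70% of HFD and 0.709% of NCD cells. They held 76.3% of the Penk UMIs in KO and 54.5% in WT. In the diet pool they held 82.2% in HFD and 60.6% in NCD. Most Penk RNA therefore sat in a few cells of high content, and these cells made up more of KO than of WT and more of HFD than of NCD.

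Cells with a single Penk UMI were 51.2% of the positive cells in KO and 57.6% in WT. They were 39.1% in HFD and 55.2% in NCD. These cells carried little of the total: 10.7% of Penk UMIs in KO, 20.4% in WT, 6.19% in HFD and 16.8% in NCD. In KO, 18 cells held 50% of all Penk UMIs, against 15 in WT, and 34 HFD cells did so against 23 in NCD.

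**Figure D2:**
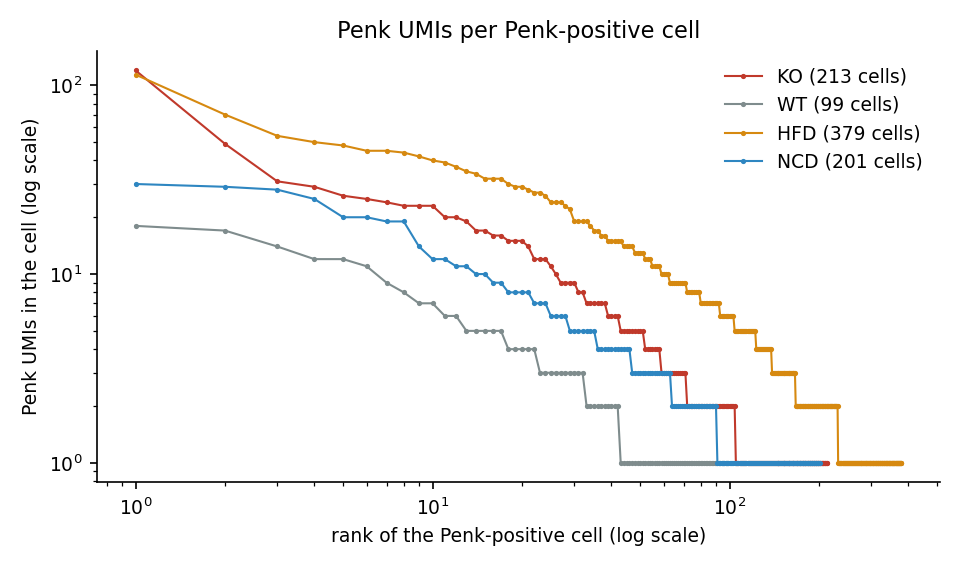
Penk UMIs in each Penk-positive cell (log axis) against the rank of the cell by its Penk UMIs (log axis), 1 point a cell, for 213 KO, 99 WT, 379 HFD and 201 NCD cells. The HFD line lies above the NCD line and the KO line above the WT line, and the richest cells held 120 UMIs in KO, 18 in WT, 114 in HFD and 30 in NCD.

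The richest cell of each condition was a T cell by Cd3e. The KO cell held 120 Penk UMIs of 11667, with 4 Cd3e and 0 Foxp3. It also had 11 Il1rl1, 2 Tnfrsf9, 0 Il1r2, 47 Il5 and 1 Il13 UMIs. The WT cell held 18 Penk UMIs of 7310, with 15 Cd3e, 4 Il1rl1, 5 Tnfrsf9, 0 Il1r2 and 0 Foxp3. Il5 and Il13 encode cytokines of type 2 immunity, and the KO cell was thus a cytokine-expressing one with no Foxp3 UMI. The HFD cell held 114 Penk UMIs of 4166, with 7 Cd3e and 0 Foxp3. It also had 3 Il1rl1, 11 Tnfrsf9, 10 Il1r2, 3 Ccr8 and 1 Il13 UMIs. The NCD cell held 30 Penk UMIs of 4889, with 6 Cd3e and 1 Foxp3. It also had 5 Il1rl1, 0 Tnfrsf9, 0 Il1r2, 1 Il5 and 15 Il13 UMIs. Without the richest cell of each condition, the level was 54.7 CPM in KO and 18.6 CPM in WT, and 123 CPM in HFD and 28.4 CPM in NCD.

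Foxp3 was detected in more of the cells with 5 or more Penk UMIs than of the cells with none, but those cells were deeper, and their Foxp3 level was not higher in most conditions. Among cells with 5 or more Penk UMIs, Foxp3 UMIs were in 66.7% in KO, 58.8% in WT, 52.5% in HFD and 65.7% in NCD. Among cells with no Penk UMI the shares were 56.4% in KO, 55.1% in WT, 39.5% in HFD and 53.6% in NCD. The median depth of the cells with 5 or more was 4563 UMIs in KO, 5444 in WT, 5978 in HFD and 6525 in NCD, against 3612, 3567, 3128 and 3961 in cells with none. The Foxp3 level was 272 CPM in cells with 5 or more and 263 CPM in cells with none in KO, 176 and 254 CPM in WT, 139 and 163 CPM in HFD, and 161 and 214 CPM in NCD. Of 62 HFD cells with 10 or more Penk UMIs, 61 had Cd3e, 52 Tnfrsf9, 38 Ccr8, 28 Il1r2 and 33 Foxp3. Of the 15 such NCD cells, 15 had Cd3e and 9 Foxp3. Of 26 KO cells, 26 had Cd3e and 17 Foxp3, and of 6 WT cells, 6 had Cd3e and 1 had Foxp3. Cells with a Cd3e UMI held 97.1% of Penk UMIs in KO, 98.9% in WT, 98.1% in HFD and 99.7% in NCD. They were also 92.8% of all kept cells in KO, 92.3% in WT, 91.8% in HFD and 94.1% in NCD. Most Penk RNA thus lay in cells with Cd3e, as most cells did have it, whether or not Foxp3 was detected in them.

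Detection of Penk went with depth. Penk-positive cells had a median of 4632 UMIs against 3612 in Penk-negative cells in KO, 4339 against 3567 in WT, 4337 against 3128 in HFD and 4604 against 3961 in NCD. The positive share in the 20% of KO cells with most UMIs was 10.1%, against 2.91% in the 20% with fewest. In HFD these shares were 16.9% and 4.21%. The Penk level in CPM also rose with depth. In the 20% of cells with fewest UMIs it was 30.8 CPM in KO, 16.0 in WT, 51.8 in HFD and 13.6 in NCD. In the 20% with most it was 73.1, 28.6, 179 and 41.8 CPM. Missed detection and a lower Penk content of shallow cells were not told apart. In HFD, Tnfrsf9-positive and Il1r2-positive cells had medians of 4145.5 and 6403 UMIs, against 2984.5 and 3104.5 in the negative cells. The levels by status below are not matched for depth.

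Status by Tnfrsf9, Il1r2 and Il1rl1 was set together with the choice of Penk, so the ratios by status are descriptions. Penk was higher in Tnfrsf9-positive than in Tnfrsf9-negative cells in each condition. In KO the levels were 127 CPM and 33.2 CPM (log2 ratio 1.93, 1.75 to 2.12). In WT they were 39.0 and 12.4 CPM (1.66, 1.31 to 2.01). Tnfrsf9-positive cells were 24.6% of KO cells with 62.9% of the Penk UMIs, and 23.3% of WT cells with 55.6%. In HFD the Tnfrsf9-positive level was 269 CPM and the negative level 42.5 CPM (2.66, 2.52 to 2.81). In NCD the levels were 64.7 and 19.5 CPM (1.73, 1.51 to 1.95). Tnfrsf9-positive cells were 26.9% of HFD cells with 79.7% of the Penk UMIs, and 18.3% of NCD cells with 49.2%. The 4-1BB-expressing minority thus held about as much Penk RNA as the rest in NCD and WT, and well over it in HFD.

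The share of Tnfrsf9-positive cells was higher among cells with more Penk. In HFD it was 23.8% in cells with 0 Penk UMIs, 43.9% with 1, 57.8% with 2 to 4 and 81.2% with 5 or more. In KO it was 23.5%, 32.1%, 47.2% and 60.8% over the same classes. The order of shares was not strict in the other conditions: WT cells gave 22.6%, 45.6%, 36.0% and 58.8%, and NCD cells 17.4%, 30.6%, 54.5% and 42.9%. The Tnfrsf9 level did rise over the classes there, at 136, 240, 390 and 705 CPM in WT. In NCD it was at 77.7, 141, 204 and 262 CPM.

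Il1r2-positive cells were few and held more Penk than Il1r2-negative cells. In KO, 149 Il1r2-positive cells were at 187 CPM against 53.7 CPM in the negative cells (log2 ratio 1.80), and in WT 74 cells were at 66.1 against 18.3 CPM (1.87). In HFD, 306 cells were at 375 CPM against 83.6 CPM (2.16, 2.05 to 2.28), and these cells held 45.3% of the Penk UMIs. In NCD the 108 Il1r2-positive cells were at 43.2 against 29.2 CPM (0.59, 0.05 to 1.05). Among cells with a Foxp3 UMI the WT ratio was 0.23 (-1.35 to 1.27), so the WT difference did not hold there. The NCD ratio turned negative with cells thinned to 2000 UMIs (-0.58) and with 2 or more Il1r2 UMIs required (-0.51).

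Over all cells, Il1rl1 status separated Penk levels little in the Srebf2 pool. In KO, Il1rl1-positive cells were at 63.3 CPM and Il1rl1-negative cells at 59.6 CPM (log2 ratio 0.09, -0.10 to 0.28). In WT they were at 20.3 and 18.8 CPM (0.11, -0.29 to 0.54). Among cells with a Foxp3 UMI the ratio was -0.12 (-0.37 to 0.14) in KO and -0.77 (-1.26 to -0.24) in WT, so the direction in WT turned. The diet pool held both signs. In HFD, Il1rl1-positive cells were at 202 CPM and negative cells at 110 CPM (0.87, 0.75 to 1.00). In NCD the positive cells were at 28.0 CPM and the negative cells at 38.4 CPM (-0.46, -0.73 to -0.18). Il1rl1 was found in 17.6% of HFD cells against 78.1% of NCD cells, so the ST2-positive class was much smaller in HFD. In KO it was found in 58.7% of cells, against 71.0% in WT.

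Taking the 3 receptor genes jointly gave 8 classes, in which the Penk level spanned a wide range. HFD cells positive for Il1rl1, Tnfrsf9 and Il1r2 were at 760 CPM. These 48 cells were 1.06% of HFD cells, held 17.2% of the Penk UMIs, and 52.1% of them had Penk. The same class was at 74.3 CPM in NCD (35 cells), 232 CPM in KO (61 cells) and 138 CPM in WT (29 cells). The HFD class with Tnfrsf9 and Il1r2 but no Il1rl1 was at 379 CPM in 164 cells and held 25.4% of the Penk UMIs. In KO this class was at 583 CPM in 17 cells, and in WT at 58.4 CPM in 7 cells. Without the richest cell of each class, a choice made after the data were seen, the triple-positive level was 554 CPM in HFD and 18.7 CPM in NCD, and 167 CPM in KO and 80.9 CPM in WT. For Tnfrsf9 and Il1r2 without Il1rl1 it was then 347 CPM in HFD, 369 CPM in KO and 0 in WT. The values of these small classes thus rest in part on single cells, in NCD most of all.

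Cells with no UMI of the 3 receptor genes had Penk levels of 30.4 CPM in KO and 14.3 CPM in WT. In HFD this class was at 32.7 CPM and in NCD at 17.9 CPM. Cells with Il1rl1 as the sole gene of the 3 were at 35.6 CPM in KO and 12.0 CPM in WT, and at 76.7 CPM in HFD and 20.1 CPM in NCD. Cells with Il1rl1 and Il1r2 but no Tnfrsf9 held 0 Penk UMIs in KO (48 cells) and in WT (31 cells). In HFD they were at 86.9 CPM and in NCD at 13.4 CPM, or 24.7 and 6.91 CPM without the richest cell. Penk was thus present, at a lower level than in the Tnfrsf9-positive classes, in cells with none of these receptors detected.

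**Figure D3:**
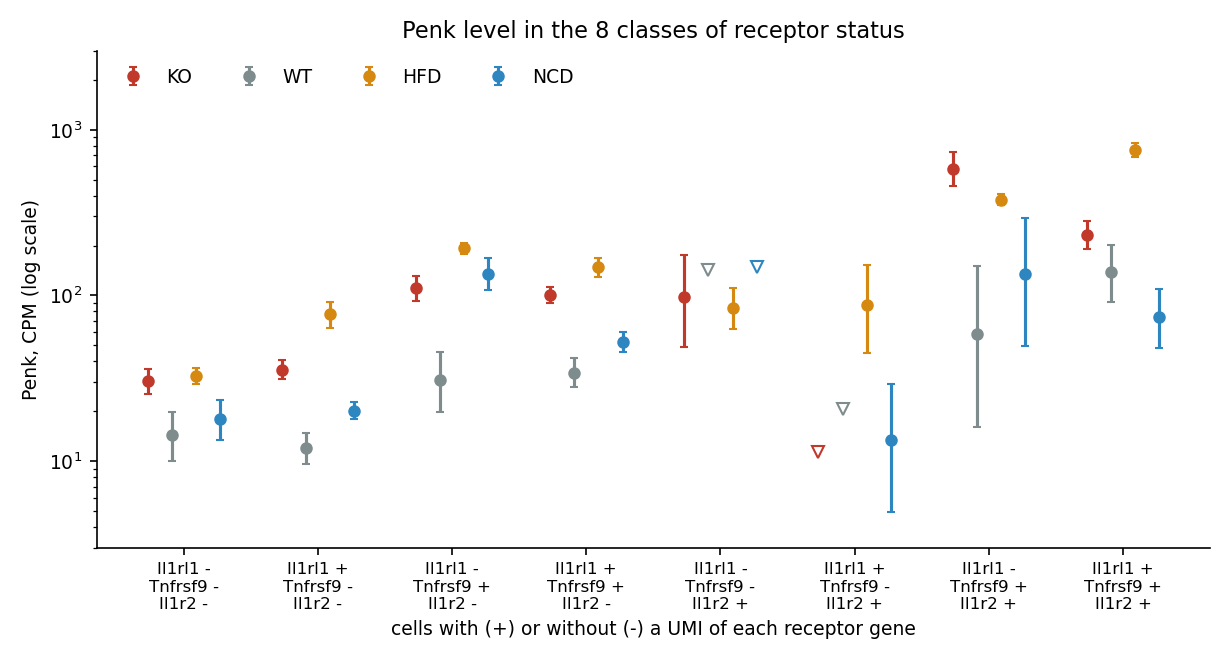
Penk level (CPM, log axis) in the 8 classes of cells set by presence or absence of Il1rl1, Tnfrsf9 and Il1r2 UMIs, for KO, WT, HFD and NCD; error bars are 95% counting intervals and open triangles the upper limit where a class held 0 Penk UMIs. The triple-positive HFD class lies at 760 CPM and the triple-negative HFD class at 32.7 CPM.

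The KO over WT ratio was close to its overall value in the classes set by Il1rl1 or Tnfrsf9 and varied more over the joint classes. It was 1.64 in Il1rl1-positive and 1.66 in Il1rl1-negative cells, 1.70 in Tnfrsf9-positive and 1.42 (1.13 to 1.73) in Tnfrsf9-negative cells. In cells with none of the 3 genes it was 1.08 (0.56 to 1.66), and in triple-positive cells 0.73 (0.13 to 1.42). In cells with Tnfrsf9 and Il1r2 but no Il1rl1 it was 3.16 (1.90 to 5.23), where all 4 WT Penk UMIs lay in 1 cell. The HFD over NCD ratio also spread over the classes. It was 2.85 (2.69 to 3.01) in Il1rl1-positive and 1.52 (1.27 to 1.78) in Il1rl1-negative cells. It was 3.33 in triple-positive cells, 0.50 in cells with Tnfrsf9 alone and 0.86 (0.45 to 1.32) in cells with none. With HFD cells reweighted to the NCD shares of the joint receptor classes, HFD over NCD was 1.77.

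Some other surface genes of activated Tregs went the same way as Tnfrsf9. Penk was higher in cells with Ccr8, a chemokine receptor of tissue Tregs, by a log2 ratio of 1.44 in KO, 1.17 in WT, 2.36 in HFD and 1.83 in NCD. For cells with Pdcd1, which encodes the inhibitory receptor PD-1, the ratios were 1.94, 1.71, 2.09 and 1.74 in the same order. For Itgb8, the integrin subunit that activates latent TGF-β, they were 1.59, 1.37, 1.79 and 1.26. For Tnfrsf4, which encodes OX40, they were 1.15, 1.95, 2.03 and 1.91. Penk levels were thus above those of the negative cells for each of these genes in each of the 4 conditions.

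Ccr7, a gene of resting cells, went the other way. For cells with Ccr7, the chemokine receptor of lymphoid homing, the log2 ratios of Penk over Ccr7-negative cells were -3.45 in KO, -2.35 in WT, -1.05 in HFD and -0.88 in NCD. Foxp3 status, by contrast, gave ratios of -0.22 in KO, -0.22 in WT, 0.19 in HFD and 0.04 in NCD.

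Cells with UMIs of type 2 cytokine genes had a higher Penk level than all cells of their condition. The cells with Il4, Il5 or Il13 were at 283 CPM in KO (111 cells) and 50.7 CPM in WT (145 cells). In HFD they were at 1037 CPM (32 cells) and in NCD at 68.3 CPM (184 cells). Penk was found in 15.3% of them in KO, 8.28% in WT, 21.9% in HFD and 11.4% in NCD. The richest KO cell (120 of the 231 Penk UMIs) and the richest HFD cell (114 of 197) are among them. Without the richest cell of each condition, a choice made after the data were seen, these cells were at 138 CPM in KO and 39.6 CPM in WT, and at 447 CPM in HFD and 46.9 CPM in NCD. In HFD, 158 Penk UMIs lay in 2 of the 6 Il13-positive cells, the richest cell among them, so the HFD value rests on few cells. The list of type 2 and myeloid-directed cytokine genes was not higher in Penk-positive cells throughout. Its median log2 ratio was 0.56 in KO, -0.25 in WT and -0.21 in NCD. In HFD 1 member was measured, at -0.19.

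Genes that went with Penk were named by the ratio of their CPM in Penk-positive over Penk-negative cells. In KO, 50 of 6503 measurable genes (0.769%) were 2-fold or more higher in Penk-positive cells, and 33 (0.507%) lower. In WT they were 73 of 6359 (1.15%) and 127 (2%). In HFD they were 160 of 6631 (2.41%) and 56 (0.845%), and in NCD 60 of 6374 (0.941%) and 32 (0.502%). Over the 5666 genes measured in all 4 conditions, 8 were 2-fold or more higher in each: Pclaf, Stmn1, Ccr8, Tnfrsf9, Hist1h2ae, Hells, H2afz and Rrm2. A set of 4 was 2-fold or more lower in each: Gm2682, Ly6c1, S1pr1 and Pde2a. The 8 fall into a pair of receptor genes and a group of genes of DNA replication, chromatin and cell division. Tnfrsf9 was a status gene set together with the choice of Penk, so its place among them restates the Tnfrsf9 comparison above.

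The receptor genes stayed above 0 when Penk-negative cells were weighted to the depth of the Penk-positive ones, but not at 2-fold throughout. Ccr8 was at log2 ratios of 1.10 in KO, 1.30 in WT, 1.48 in HFD and 1.40 in NCD, and depth-weighted at 0.86, 1.06, 1.29 and 0.90. Tnfrsf9 was at 1.09, 1.46, 1.41 and 1.27, and depth-weighted at 0.94, 1.31, 1.39 and 1.03. Depth-weighted, Ccr8 was thus under 2-fold in KO and NCD and Tnfrsf9 in KO. Itgb8 was at 1.10, 1.37, 1.01 and 0.93. Ccr8 was found in 35.2% of Penk-positive and 14.0% of Penk-negative cells in KO, and in 42.0% and 10.9% in HFD. Cd81, a tetraspanin, was at 1.06 in KO, 0.91 in WT, 1.57 in HFD and 0.83 in NCD. Dusp4, a phosphatase that restrains MAP kinases, was at 0.69, 0.74, 0.76 and 0.87. Pdcd1 was found in 67.1% of Penk-positive and 40.2% of Penk-negative cells in KO, 66.7% and 40.9% in WT, 67.3% and 32.8% in HFD, and 54.2% and 30.0% in NCD.

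The cell division genes depended on depth. Mki67, the proliferation marker, was at 0.89 in KO, 2.82 in WT, 1.37 in HFD and 1.41 in NCD. Depth-weighted it was at 0.07, 2.22, -0.08 and -0.16, so that the ratio stood clear of 0 in WT alone, where 8 of 99 Penk-positive cells had Mki67. Pclaf, a partner of the replication clamp PCNA, was at 1.40, 3.08, 1.54 and 2.51, and depth-weighted at 0.17, 2.24, -0.06 and 0.58. Stmn1, a regulator of microtubules, was at 1.49, 2.64, 1.36 and 1.19, and depth-weighted at 0.47, 1.97, -0.12 and -0.39. Pclaf was found in 5 KO, 5 WT, 27 HFD and 8 NCD Penk-positive cells, and Stmn1 in 22, 6, 37 and 18. In KO, 18 of the 49 Pclaf UMIs in Penk-positive cells lay in 1 cell. In WT, Stmn1 was found in 6.06% of Penk-positive and 5.87% of Penk-negative cells, so its WT ratio rests on few cells. H2afz, which encodes the histone variant H2A.Z, stayed positive in each condition at 1.13, 1.16, 0.39 and 0.53 depth-weighted. The part of depth in these ratios is given by the weighted values, and no further cause was tested. Split by Mki67 instead, Penk was at 39.1 CPM in Mki67-positive and 64.2 CPM in Mki67-negative KO cells (-0.70, -1.13 to -0.33). In WT it was at 14.0 and 20.4 CPM (-0.50, -1.40 to 0.20). The ratio was 0.03 (-0.14 to 0.18) in HFD and 0.53 (0.17 to 0.87) in NCD. The share of cells with Penk was higher in Mki67-positive cells in each condition, and those cells were deeper.

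**Figure D4:**
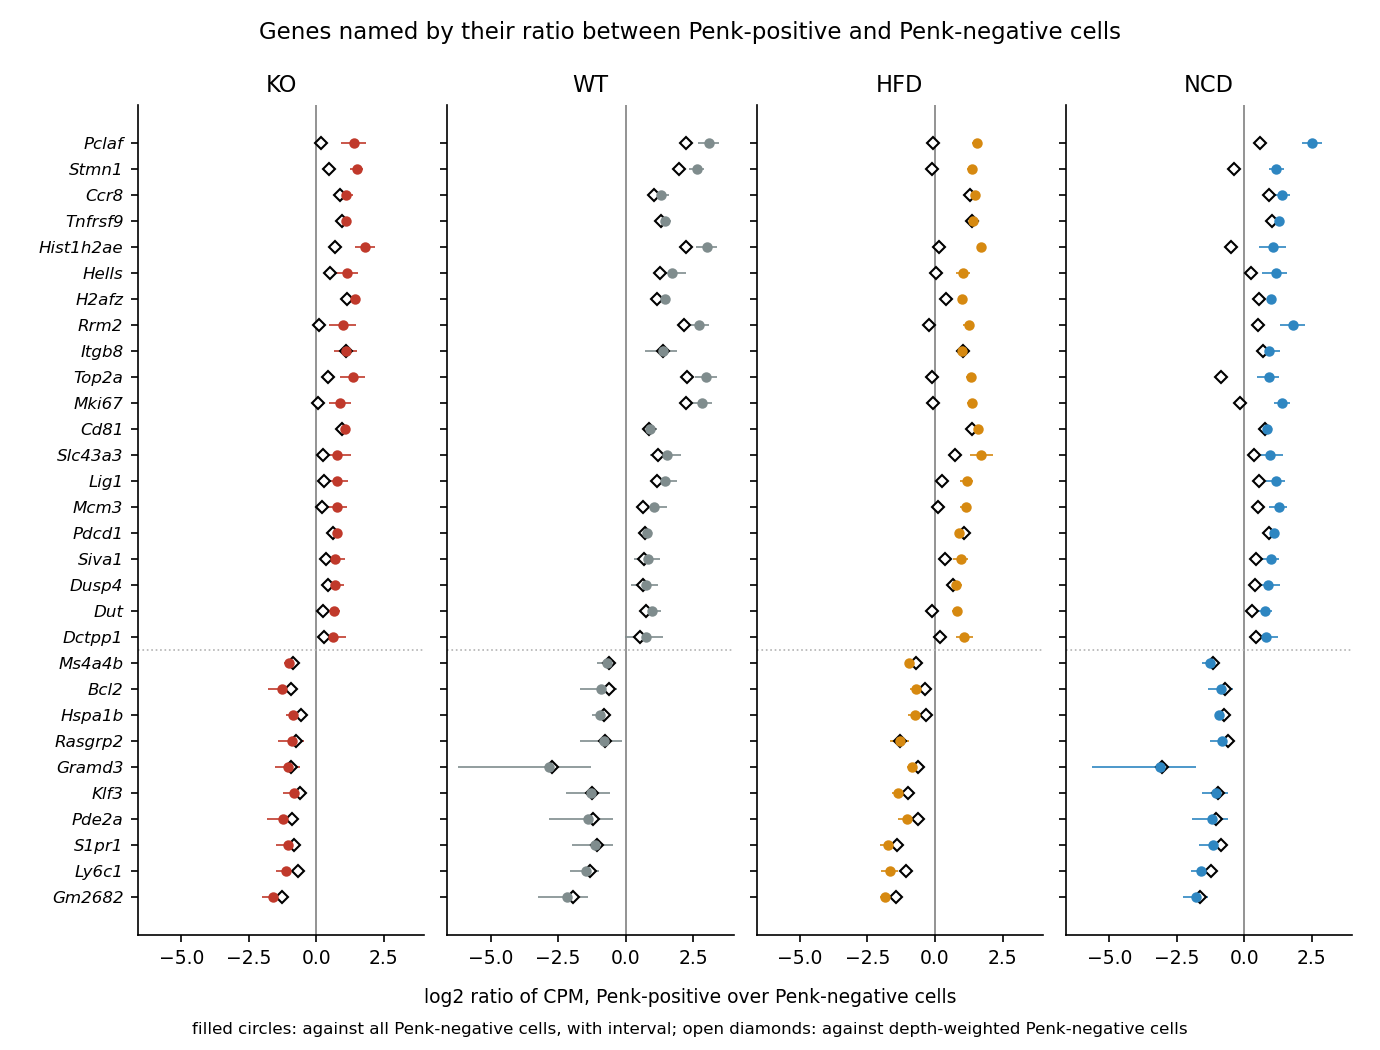
Log2 ratio of CPM in Penk-positive over Penk-negative cells for the 20 genes with the highest and the 10 with the lowest ratios by the naming rule, in KO, WT, HFD and NCD, with 95% counting intervals (filled circles) and depth-weighted values (open diamonds). Ccr8 and Tnfrsf9 lie between 0.86 and 1.48 in both, while the division genes Mki67 and Pclaf move towards 0 with depth weighting in KO and HFD.

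The 10 genes with the lowest ratios by the naming rule were Gm2682, Ly6c1, S1pr1, Pde2a, Klf3, Gramd3, Rasgrp2, Hspa1b, Bcl2 and Ms4a4b, of which the first 4 were 2-fold lower in each condition. S1pr1, the receptor that guides exit from tissue, was at -1.06 in KO, -1.12 in WT, -1.75 in HFD and -1.16 in NCD. Klf3, a transcription factor, was at -0.84, -1.28, -1.39 and -1.06, short of 2-fold in KO. Ly6c1, a lymphocyte surface glycoprotein, was at -1.12, -1.46, -1.66 and -1.60. Bcl2, which encodes a survival factor, was at -1.26, -0.92, -0.71 and -0.85, past 2-fold in KO alone. Hspa1b, an inducible heat shock gene, was at -0.88, -0.95, -0.74 and -0.93, past 2-fold in 0 of the 4 conditions. Gm2682, for which no role is given here, was at -1.60, -2.16, -1.86 and -1.79.

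The list of 10 resting-cell genes held members lower in Penk-positive cells in each condition. In HFD, 7 of 10 measured members were 2-fold or more lower in Penk-positive cells and 0 higher, with a median of -1.23, against a median of 0.04 over all genes measured. Klf2, a transcription factor of quiescent T cells, was at 151 CPM in Penk-positive and 436 CPM in Penk-negative HFD cells. Of all genes measured, 0.845% were lower in HFD. In KO 2 of 9 measured members were lower (0.507% of all genes), in WT 3 of 7 (2% of all genes) and in NCD 3 of 7 (0.502% of all genes), with medians of -0.50, -0.46 and -0.28 and 0 higher in each. Klf2 was at 243 CPM in Penk-positive and 379 CPM in Penk-negative KO cells, 190 and 383 CPM in WT, and 162 and 394 CPM in NCD.

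The lists of NF-kB and Treg core genes held no member past 2-fold, and the adipose ST2 Treg list held some. None of the 12 measured NF-kB genes was 2-fold higher or lower in any condition, and their medians were 0.14 in KO, 0.01 in WT, 0.13 in HFD and -0.05 in NCD. Of 19 measured AP-1, CREB and early response genes, 0 were higher in any condition, 1 was lower in WT and 1 in HFD. Batf, an AP-1 factor of effector Tregs, was at 0.25, 0.63, 0.68 and 0.45. Of the 10 Treg core genes, 0 passed in either direction, with medians of 0.06, 0.10, 0.26 and 0.07. Of the adipose ST2 Treg list, 1 of 16 measured members was higher in KO (0.769% of all genes), 1 of 15 in WT (1.15%), 4 of 15 in HFD (2.41%) and 1 of 15 in NCD (0.941%). In HFD these were Ccr8, Il1r2, Itgae and Il10, while Il1rl1 was at 0.01 in KO, -0.17 in WT, 0.06 in HFD and -0.18 in NCD. Il1r2 and Il1rl1 were status genes set together with the choice of Penk, so their values are descriptions. Penk-positive cells were thus near the other cells in Treg core genes while differing in Ccr8 and resting genes, and in the chosen status gene Tnfrsf9.

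The genes with the highest ratios in a single condition often rested on 1 cell. Il5 was at 2.85 in KO, where 47 of its 92 UMIs in Penk-positive cells came from the cell with 120 Penk UMIs. The globin Hbb-bs led in WT with 2186 of 2189 UMIs in 1 cell, which held 1 Penk UMI. The collagen Col3a1 led in HFD with 689 of 690 UMIs in 1 droplet of 30298 UMIs, with 1 Penk, 0 Cd3e and 0 Foxp3. The chemokine Ccl4 led in NCD with 279 of 319 UMIs in 1 cell of 28 Penk UMIs. Summed T cell markers were at 2805 CPM in Penk-positive and 2697 CPM in Penk-negative KO cells, 2399 and 2494 CPM in WT, 3312 and 3178 CPM in HFD, and 2577 and 2432 CPM in NCD. Macrophage markers were at 1.74 and 4.19 CPM in KO, 14.7 and 3.86 in WT, 4.92 and 4.28 in HFD, and 4.97 and 3.53 in NCD.

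The fibroblast and mesothelial markers stood at 471 CPM in Penk-positive and 0.745 CPM in Penk-negative HFD cells, with 689 of the 690 Col3a1 UMIs in that 1 droplet. Over all HFD cells, 16 had a UMI of any of the 6 markers and together held 25 of the 2392 Penk UMIs. In KO, 11 such cells held 12 Penk UMIs, in WT 25 held 3 and in NCD 18 held 2. With cells restricted to those with Cd3e and without such markers, a choice made after the data were seen, KO over WT was 1.60 and HFD over NCD 2.09.

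Of the other opioid precursor genes, Pdyn, the dynorphin precursor, had 0 UMIs in all 4 conditions, which allows up to 0.182 CPM in KO, 0.214 in WT, 0.162 in HFD and 0.135 in NCD. Pnoc, the nociceptin precursor, had 2 UMIs in NCD and 0 elsewhere. Pomc, the precursor of β-endorphin, was at 5.35 CPM in KO and 5.28 CPM in WT, and at 3.02 CPM in HFD and 3.78 CPM in NCD. Pdyn and Pnoc were thus at or near 0, and Pomc differed little between the paired conditions.

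The convertase genes Pcsk1 and Furin were lower in HFD than in NCD, the other direction from Penk, while the list of processing and breakdown genes as a whole lay near 0. Pcsk1, the prohormone convertase PC1/3 that cuts proenkephalin, was at 6.26 CPM in HFD and 55.0 CPM in NCD (log2 ratio -3.13, -3.42 to -2.86). Furin, a convertase of the secretory route, was at 26.9 CPM in HFD and 86.5 CPM in NCD (-1.68, -1.83 to -1.54). In the Srebf2 pool both were close: Pcsk1 at 32.9 CPM in KO and 38.9 CPM in WT (-0.24, -0.42 to -0.07), and Furin at 87.8 CPM in KO and 81.4 CPM in WT (0.11). The carboxypeptidase gene Cpd was at 17.1 CPM in HFD and 27.7 CPM in NCD (-0.70), and at 28.2 CPM in KO and 36.5 CPM in WT (-0.37). Of the 18 genes of enkephalin processing and breakdown, 9 were measurable in the diet comparison, with 1 higher and 2 lower by 2-fold and a median of -0.03. Pcsk7, another convertase, was at 24.4 CPM in HFD and 24.9 CPM in NCD. Below the minimum of 20 CPM, the carboxypeptidase gene Cpe had 18 UMIs in HFD and 5 in NCD, and Scg5, which encodes the PC2 chaperone 7B2, had 61 UMIs in HFD and 16 in NCD. In KO over WT 7 were measurable, with 0 higher and 0 lower and a median of 0.11.

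Pcsk1 was tied to Il1rl1 status. It was at 46.3 CPM in Il1rl1-positive and 8.29 CPM in Il1rl1-negative KO cells, 49.0 and 8.08 CPM in WT, 22.3 and 2.10 CPM in HFD, and 64.6 and 7.30 CPM in NCD. Pcsk1 UMIs were found in 1.71% of HFD cells against 15.03% of NCD cells. Within both Il1rl1 classes the HFD value lay below the NCD value. Penk was found more often in Pcsk1-positive than in Pcsk1-negative cells: 11.7% of Pcsk1-positive and 4.79% of Pcsk1-negative KO cells had Penk, 5.76% and 2.51% in WT, 18.2% and 8.23% in HFD, and 7.41% and 3.48% in NCD. The cells with both numbered 40 in KO, 20 in WT, 14 in HFD and 55 in NCD. HFD thus had more cells with Penk than NCD but fewer with Penk and Pcsk1 together.

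Of the peptidase genes that break down enkephalin or trim peptides, Dpp4, which encodes CD26, was at 39.9 CPM in HFD and 7.39 CPM in NCD (2.43, 2.19 to 2.69). Dpp4 was at 15.3 CPM in KO and 5.996 CPM in WT (1.35), below the minimum of 20 CPM. Ece1, an endothelin-converting enzyme, was at 20.4 CPM in HFD and 10.7 CPM in NCD (0.93). In NCD, 2 Penk UMIs lay in 135 Dpp4-positive cells, while in HFD Penk was at 149 CPM in Dpp4-positive and 125 CPM in Dpp4-negative cells.

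Among opioid receptor genes, Oprm1, the mu receptor, was at 26.6 CPM in HFD and 6.08 CPM in NCD (2.12, 1.85 to 2.41). It was at 4.93 CPM in KO and 4.35 CPM in WT (0.18). Oprd1 and Oprk1, the delta and kappa receptors, had 0 UMIs in all 4 conditions. Oprm1 was higher in Il1rl1-negative cells in each condition: 16.0 CPM in Il1rl1-positive and 29.3 CPM in Il1rl1-negative HFD cells, 3.68 and 18.1 CPM in NCD, 2.72 and 8.98 CPM in KO, and 2.47 and 10.1 CPM in WT. Cells with both Oprm1 and Penk numbered 43 in HFD, 6 in NCD, 6 in KO and 1 in WT. In HFD, Penk was at 63.8 CPM in Oprm1-positive and 138 CPM in Oprm1-negative cells (-1.11), while the share of cells with Penk was 10.1% in Oprm1-positive and 8.22% in Oprm1-negative cells. The Penk ratio by Oprm1 status was 0.41 (-0.20 to 0.92) in NCD, 0.28 (-0.33 to 0.79) in KO and 1.03 (-0.19 to 1.90) in WT. Level and share thus gave no single direction for Penk in cells with Oprm1.

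**Figure D5:**
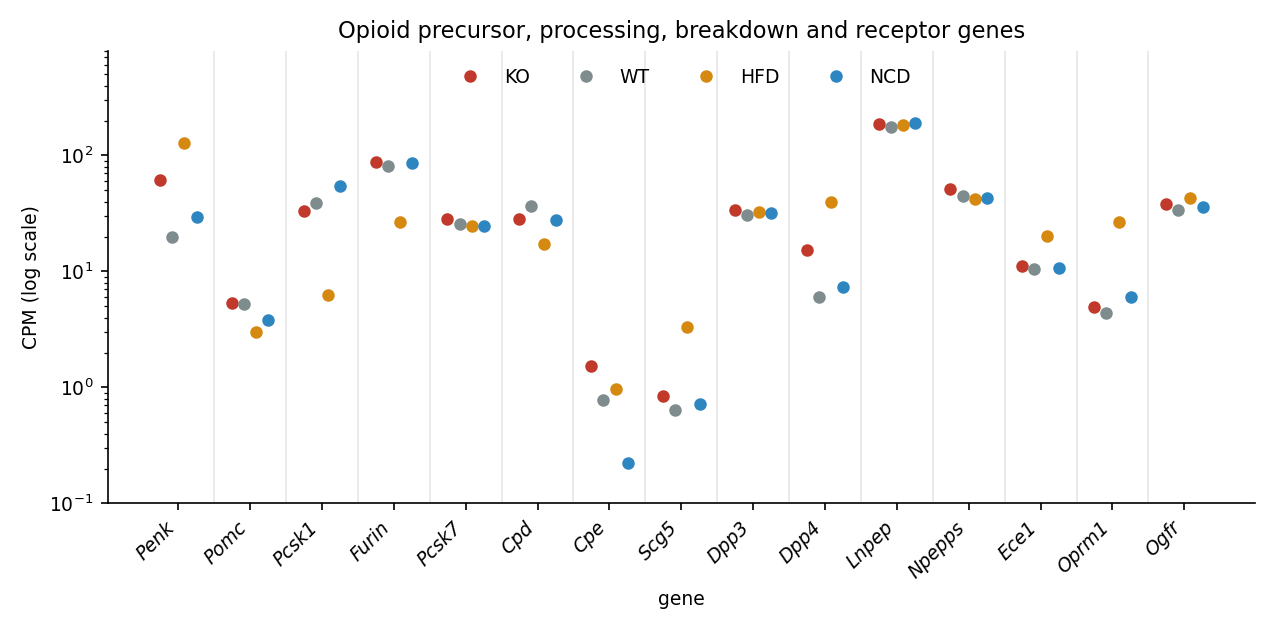
Levels (CPM, log axis) of opioid precursor, processing, breakdown and receptor genes, 1 point for each of KO, WT, HFD and NCD, with no error bars. Pcsk1 and Furin are lower in HFD than in NCD, Dpp4 and Oprm1 higher, and KO and WT lie close together for Pcsk1 and Furin.

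Srebf2, the gene targeted in KO, was found in 1.52% of KO cells against 21.5% of WT cells. In KO, Penk-positive cells held 4 Srebf2 UMIs (3.47 CPM), against 3.99 CPM in Penk-negative cells. In WT the levels were 51.3 CPM in Penk-positive and 66.3 CPM in Penk-negative cells. WT cells with a Srebf2 UMI had Penk at 12.3 CPM and those without at 22.6 CPM (log2 ratio -0.87, -1.38 to -0.42), while the shares with Penk were 2.93% and 2.81%. In the diet pool the ratio by Srebf2 status had the other sign, 0.13 (-0.01 to 0.27) in HFD and 0.31 (0.07 to 0.54) in NCD. Of the cholesterol synthesis list, 0 members were 2-fold higher in Penk-positive cells in any condition, and 1 of 13 was lower in WT.

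Antigen receptor segments gave a view of how many clones the Penk-positive cells could come from. In HFD, 189 Penk-positive cells with both an alpha and a beta variable segment held 152 segment pairs. In KO, 97 such cells held 55 pairs, the most frequent being Trav14n-3 with Trbv19 in 10 cells. In NCD, 100 cells held 45 pairs, with Trav10n and Trbv12-2 in 18 cells. Penk-negative cells held repeated pairs too. Their most frequent pair was a different one: in KO Trav7-3 with Trbv5, in 125 of 1460 cells with both segments (8.56%). In NCD it was Trav8n-2 with Trbv31, in 183 of 1842 (9.93%). The most frequent pair of the Penk-positive cells made up 10.3% of them in KO and 18% in NCD. The share of those pairs among Penk-negative cells was not counted. In WT, Trbv4 was the beta segment of 19 of 73 Penk-positive cells (26.0%), against 4.37% of Penk-negative cells. Penk was found in 16.7% of Trbv4 cells in WT, 10.3% in KO, 11.5% in HFD and 0 of 29 in NCD. Segments of the same family share sequence, so a segment pair is not a clone.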

How the data were processed

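The authors deposited UMI counts per gene and droplet for 2 pools of sorted adipose Tregs, with hashtag counts in the same matrices. Counts were made with Cell Ranger, per the file headers in version 7.1.0 (Srebf2 pool) and version 7.0.1 (diet pool); the submitters' processing notes name 7.0.1 and mm10. Gene coordinates came from a RefSeq table of GRCm38.p6. Droplets without 1 hashtag at 90% or more (810 and 808) were left out, doublets within a condition remain, and no doublet caller was run. Droplets with Cd79a, Lyz2 or Cd8a UMIs were also left out (153 KO, 186 WT, 297 HFD, 579 NCD). Cells carried 16444262 UMIs in KO, 14010241 in WT, 18543516 in HFD and 22200627 in NCD.

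UMIs were summed per condition or class and scaled to CPM. Log2 ratios had 0.5 counts added, and intervals were exact Poisson, Clopper-Pearson or binomial-split intervals. A gene was measurable at 20 CPM in the higher group. For Penk-positive against Penk-negative cells, 10 UMIs expected in the Penk-positive sum were also needed. A 2-fold ratio was the size rule, since 1 pool per condition allows no test across replicates. Named genes were the 20 with the largest lowest ratio and the 10 with the smallest highest ratio over the 4 conditions, the 3 highest per condition, and the members of gene lists. The gene, lists and rules were chosen with earlier results of these data known. Alternatives covered the hashtag cut, cell filters, thinning, depth weighting, scaling and the added count. The gene comparison was tested on simulated data. Python 3.11.15, numpy 2.4.6, scipy 1.17.1, pandas 2.3.3 and matplotlib 3.10.9 were used. Values of 1 gene of the resting list are not reported here.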

Additional observations from a re-analysis of the deposited data

Results flagged for a closer look

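Penk UMIs were also found in droplets that no comparison used. Among droplets left out for Cd79a, Lyz2 or Cd8a UMIs, Penk was at 15.4 CPM in KO (14 UMIs), 12.0 CPM in WT (14 UMIs), 36.4 CPM in HFD (75 UMIs) and 11.3 CPM in NCD (60 UMIs). These droplets include cells with Cd3e, and the droplets with no Cd3e and no Foxp3 had 0 Penk UMIs in KO, WT and HFD and 1 in NCD for the B cell type. Among droplets without 1 hashtag at 90% or more, Penk was at 38.3 CPM in the Srebf2 pool (171 UMIs, 45 of 810 droplets) and at 53.1 CPM in the diet pool (261 UMIs, 57 of 808 droplets). Each value lies above the limit that a count of 0 allows, which is what singled it out.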

How the results depend on the processing

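Of 178 levels, ratios and shares under alternatives, 142 stayed within the counting interval of the reported value, and of 56 gene counts 40 stayed within 1.5 times. The sign turned in 8 cases: 2 for Il1r2 in NCD, whose interval excluded 0, and 3 each for Il1rl1 in KO and WT, whose intervals included 0. KO over WT stayed between 1.48 and 1.64 over its 11 alternatives and HFD over NCD between 1.77 and 2.23, the lowest being the value with receptor classes reweighted (1.77). With cells thinned to 2000 UMIs the Penk-positive share was 3.65% in KO, 2.07% in WT, 6.42% in HFD and 2.54% in NCD; the Il1rl1 log2 ratio was -0.06 in KO and 1.05 in HFD; the Tnfrsf9 ratio was 1.20 in WT, 2.44 in HFD and 1.20 in NCD; the Il1r2 ratio was 2.23 in KO, 2.83 in HFD and -0.58 in NCD, a change of sign; and genes 2-fold higher numbered 26 in KO, 12 in WT, 73 in HFD and 13 in NCD. With only Foxp3-positive cells the share was 10.6% in HFD, the Il1rl1 ratio -0.12 in KO and -0.77 in WT, both turned in sign, and 0.65 in HFD, the Tnfrsf9 ratio 1.97 in HFD and 1.42 in NCD, the Il1r2 ratio 2.21 in KO, 0.23 in WT, 1.74 in HFD and 1.08 in NCD, and genes higher 29 in KO and 79 in HFD. Without the richest cell the Il1rl1 ratio was -0.19 in KO, -0.02 in WT and 0.64 in HFD, the Tnfrsf9 ratio 1.64 in KO and the Il1r2 ratio 2.01 in HFD. With 2 or more UMIs needed for a positive status, Il1rl1 was at 1.06 in HFD, Tnfrsf9 at 2.47 in KO, 2.22 in WT, 3.00 in HFD and 2.33 in NCD, and Il1r2 at 2.22 in KO, 2.50 in HFD and -0.51 in NCD, again a change of sign. With the excluded cells kept, Il1rl1 was at -0.14 in NCD, and with a hashtag share of 95%, Il1r2 was at 1.55 in KO and Il1rl1 at -0.03 in WT. Genes higher in Penk-positive cells numbered 134 in WT, 75 in HFD and 19 in NCD with depth weighting, 46 in WT and 105 in HFD among Il1rl1-positive cells, 147 in WT with 5 counts added, and 4509 in KO, 6044 in WT, 4554 in HFD and 5468 in NCD with no filter on low counts, where genes of few UMIs enter. The causes of the other moves were not tested. The restriction to Cd3e-positive cells without fibroblast markers was chosen after seeing the data and moved no value beyond its interval and no gene count by over 1.5 times. No paired analysis was possible because each condition is 1 pool of mice with 1 hashtag and no replicates. Depth limits the shares of Penk-positive cells and the class values resting on few cells.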
